A study of Mus musculus with 10 samples.

Results

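The transcripts of 10 genes of the fibroblast growth factor (FGF) family were examined in mouse hearts: the receptors *Fgfr1*, *Fgfr2*, *Fgfr3* and *Fgfr4*, the secreted ligands *Fgf1*, *Fgf2*, *Fgf9* and *Fgf16*, and the intracellular family members *Fgf12* and *Fgf13*. They were taken by gene symbol, whatever their values, from a table of 54532 genes, and all 10 symbols matched a single row. The hearts came from 10 Rit1 M90I/+ mice, 5 given vehicle control and 5 given the MEK1/MEK2 inhibitor trametinib (MEKi) at 1 mg/kg each day. Dosing began at 4 weeks of age and went on for 20 weeks, and the hearts were taken on the day of the last dose. The methods say that littermates of both sexes were used, and the labels give no sex. The mutation, which causes Noonan syndrome in people, was carried by vehicle control and MEKi-treated mice alike. It was made germline by crossing conditional Rit1 M90I males to females with a cytomegalovirus-Cre deleter transgene, so it is not limited to cardiac cells, and no wild-type heart was among the 10. Levels are in FPKM, fragments per kilobase of gene length scaled to a library size for each heart, which allows genes to be compared per length.

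FGF receptors are tyrosine kinases of the cell surface. A secreted FGF binds its receptor together with heparan sulfate, and the receptor then recruits the docking protein FRS2, the adaptor GRB2 and the exchange factor SOS, which load RAS and start the RAF-MEK-ERK cascade that trametinib blocks. FGF12 and FGF13 belong to a branch of the family that is not secreted and does not act through these receptors. They bind the intracellular tail of voltage-gated sodium channels and shape the sodium current of heart muscle and neurons.

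Each heart had from 13647167 to 18474002 fragments on genes. Mitochondrial genes held 24.7 to 35.0% of them in vehicle hearts and 24.0 to 28.7% in MEKi-treated hearts. Cardiomyocyte markers (*Myh6*, *Tnnt2*, *Actc1*, *Ryr2* and *Tnni3*) summed to between 9224 and 12926 FPKM in the 10 hearts. *Xist*, made from the inactive X chromosome of females, ran from 5.16 to 6.85 FPKM under MEKi and did not exceed 0.00662 FPKM in any vehicle heart. Y-linked *Ddx3y* showed the opposite, with 10.3 to 12.2 FPKM in the vehicle group and no fragment with MEKi. By these transcripts the vehicle hearts were male and the MEKi-treated hearts female. Treatment and sex therefore cannot be told apart in any comparison below, for autosomal genes as well as for those on X and Y. *Fgf13* and *Fgf16* are themselves on chromosome X. Markers of atrial muscle were far higher in vehicle hearts 4 and 5 and MEKi heart 2 than in the other 7. In whole tissue, fewer cells of a type and less RNA per cell cannot be told apart.

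*Fgf1* was the most abundant of the 10 transcripts, at 27.5 FPKM averaged over all hearts, and *Fgf16* (13.4 FPKM) and *Fgf13* (11.1 FPKM) followed. *Fgfr1*, at 3.69 FPKM, led the receptors. *Fgf2* (1.79 FPKM), *Fgf9* (1.62 FPKM) and *Fgfr3* (1.31 FPKM) formed a lower tier, and *Fgf12* (0.387 FPKM), *Fgfr2* (0.0548 FPKM) and *Fgfr4* (0.0425 FPKM) came last. The order was shared by all 10 hearts at 6 of its 9 steps. It was not shared between *Fgf16* and *Fgf13*, where *Fgf16* was higher in 8 of 10 hearts, between *Fgf2* and *Fgf9*, where *Fgf2* was higher in 7, or between *Fgfr2* and *Fgfr4*, where *Fgfr2* was higher in 7. Whether these neighbours differ in level was not tested. The members also differed in how much they varied among hearts: the coefficient of variation was 9.55% for *Fgf1*, between 15.9 and 28.5% for *Fgfr1*, *Fgf9*, *Fgf2*, *Fgf13*, *Fgfr3* and *Fgf16*, and between 75.8 and 124% for *Fgfr2*, *Fgfr4* and *Fgf12*.

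**Figure D1:**
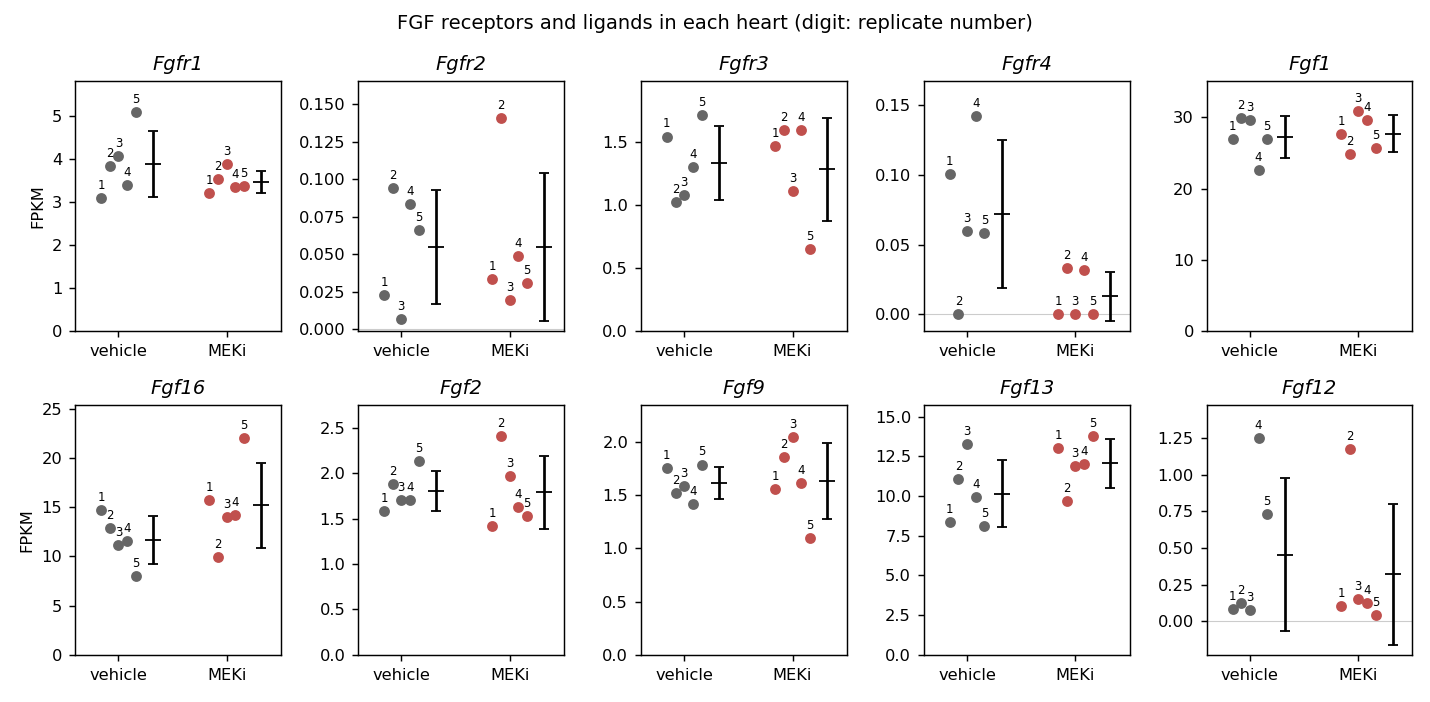
FPKM of each FGF gene in the 5 vehicle control and 5 MEKi-treated hearts, 1 panel per gene with its own linear axis; points are hearts with their replicate number, and the bar beside them is the mean ± SD. The groups overlap in every panel, and *Fgf12* stands high in vehicle hearts 4 and 5 and MEKi heart 2.

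None of the 10 genes separated the groups. Of these, 7 had a mean of at least 0.5 FPKM and entered the test over all genes (limma on log2(FPKM + 0.1), Benjamini-Hochberg adjustment), and 0 of these 7 had an adjusted p under 0.05, against 10 of 12602 genes tested (0.0794%). At an unadjusted p under 0.05 the count was again 0 of 7, where 960 of all genes tested (7.62%) passed. Values of the 2 groups overlapped for all 10 members, and 207 of the 12602 genes (1.64%) had groups that did not overlap. The members under the filter are not among those 12602. With so few members, counts of 0 are near these shares and do not set the FGF genes apart. The median log2 fold change of the 7 was −0.0064, with 3 above and 4 below 0, beside a median of 0.011 over all genes tested. The size of change that the data allow is given by the 95% intervals below, since a p that misses the threshold does not show equal levels.

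**Figure D2:**
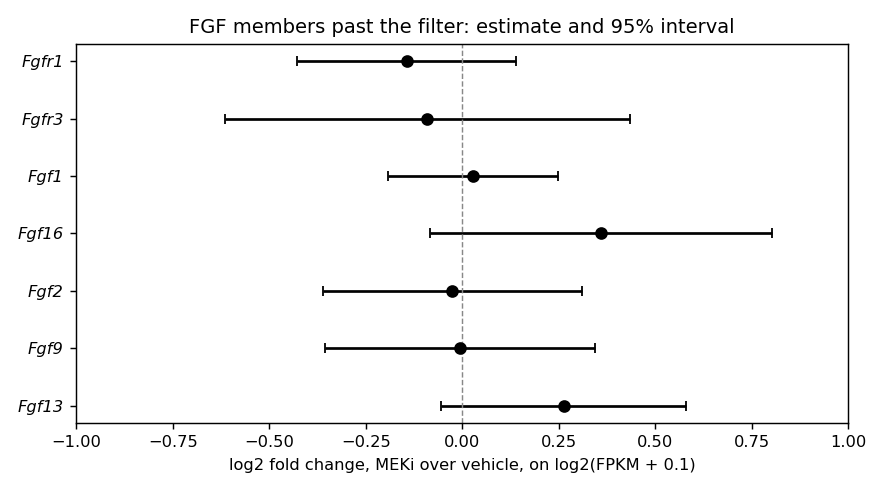
Log2 fold change of MEKi-treated over vehicle control hearts for the 7 members past the filter, from limma on log2(FPKM + 0.1); points are estimates, bars are 95% intervals and the dashed line is no difference. Every interval includes 0, and the widest is that of *Fgfr3*, from −0.61 to 0.43.

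Among the receptors, *Fgfr1* and *Fgfr3* supplied nearly all transcripts. *Fgfr1* (ENSMUSG00000031565, GRCm38 chromosome 8, 25513654 to 25575718, plus strand), whose product signals in response to many paracrine FGFs, was at 3.09, 3.84, 4.08, 3.40 and 5.10 FPKM in vehicle hearts 1 to 5. In MEKi-treated hearts 1 to 5 it was at 3.21, 3.55, 3.89, 3.36 and 3.38 FPKM. All MEKi values lay inside the vehicle range, at the top of which vehicle heart 5 stood alone. The means were 3.90 ± 0.772 and 3.48 ± 0.260 FPKM (SD, n = 5 each), with a log2 fold change of −0.14 (SE 0.13, 95% interval −0.43 to 0.14, limma adjusted p = 0.822). It was −0.044 without vehicle heart 5 and −0.22 without vehicle heart 1.

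*Fgfr3* (ENSMUSG00000054252, chromosome 5, 33721674 to 33737068, plus strand), best known as a brake on bone growth, was at 1.54, 1.03, 1.08, 1.30 and 1.72 FPKM in vehicle hearts 1 to 5. The MEKi-treated hearts 1 to 5 had 1.47, 1.60, 1.11, 1.59 and 0.649 FPKM. MEKi heart 5 was the lowest of all, and the other 4 MEKi values lay among those of the vehicle hearts. The log2 fold change was −0.090 (SE 0.24, 95% interval −0.61 to 0.43, limma adjusted p = 0.956), and it was 0.12 without MEKi heart 5. Between 73 and 204 *Fgfr3* fragments were counted per heart, against 467 to 733 for *Fgfr1*. An antisense transcript, *G630022F23Rik*, shares 998 exonic bases with *Fgfr3*, 13.9% of its length, and was listed at 0 in all hearts. No strand setting is given for the counting, so reads of the shared stretch cannot be assigned to either gene.

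*Fgfr2* and *Fgfr4* were close to the limit of detection. *Fgfr2* (ENSMUSG00000030849, chromosome 7, 130162451 to 133123350, minus strand), a receptor typical of epithelia, had between 1 and 25 fragments per heart, 41 over all vehicle hearts and 48 over all MEKi-treated hearts. Its level ran from 0.00681 to 0.0940 FPKM under vehicle and from 0.0198 to 0.141 FPKM under MEKi (difference of mean log2(FPKM + 0.1) −0.010, exact permutation test over hearts, p = 0.952). Of its exonic bases, 314 are shared with *Ctbp2* on the same strand, which was at 2.15 FPKM on average, and fragments of the shared stretch cannot be assigned to either gene.

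*Fgfr4* (ENSMUSG00000005320, chromosome 13, 55152640 to 55168759, plus strand) encodes the receptor through which the hormone FGF23 acts on heart muscle. It had 6, 0, 3, 7 and 3 fragments in vehicle hearts 1 to 5 and 0, 2, 0, 2 and 0 in MEKi-treated hearts 1 to 5. Of the 5 vehicle hearts, 4 had more fragments than any MEKi-treated heart, and vehicle heart 2 had none. A count of 0 allows up to 3 fragments, which correspond to between 0.0474 and 0.0608 FPKM across hearts and cover counting error only. All MEKi values and 3 of the 5 vehicle values were at or under that limit. The mean log2(FPKM + 0.1) was lower with MEKi by 0.56, with an exact permutation p of 0.0635 (two-sided), where the smallest value possible is 0.00794. The size of this difference was set by the pseudocount: it was −1.76 with 0.01 FPKM and −0.081 with 1 FPKM in place of 0.1. Without vehicle heart 2 the groups no longer overlapped (difference −0.74, exact permutation p = 0.00794, the smallest possible with 4 against 5 hearts), so the call turned on 1 heart with no fragment. With every gene above 0 in the fit, the limma adjusted p was 0.800.

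Taken as shares of the summed FPKM of the 4 receptors, *Fgfr1* made up 72.6 ± 5.59% with vehicle and 72.5 ± 7.51% with MEKi (SD, n = 5 each). *Fgfr3* made up 25.0 ± 4.86% and 26.2 ± 6.89%. The sum itself was 5.36 ± 0.899 FPKM under vehicle and 4.83 ± 0.480 FPKM under MEKi. Single hearts varied more than the groups: *Fgfr1* was 2.00 times *Fgfr3* in vehicle heart 1 and 5.21 times *Fgfr3* in MEKi heart 5.

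**Figure D3:**
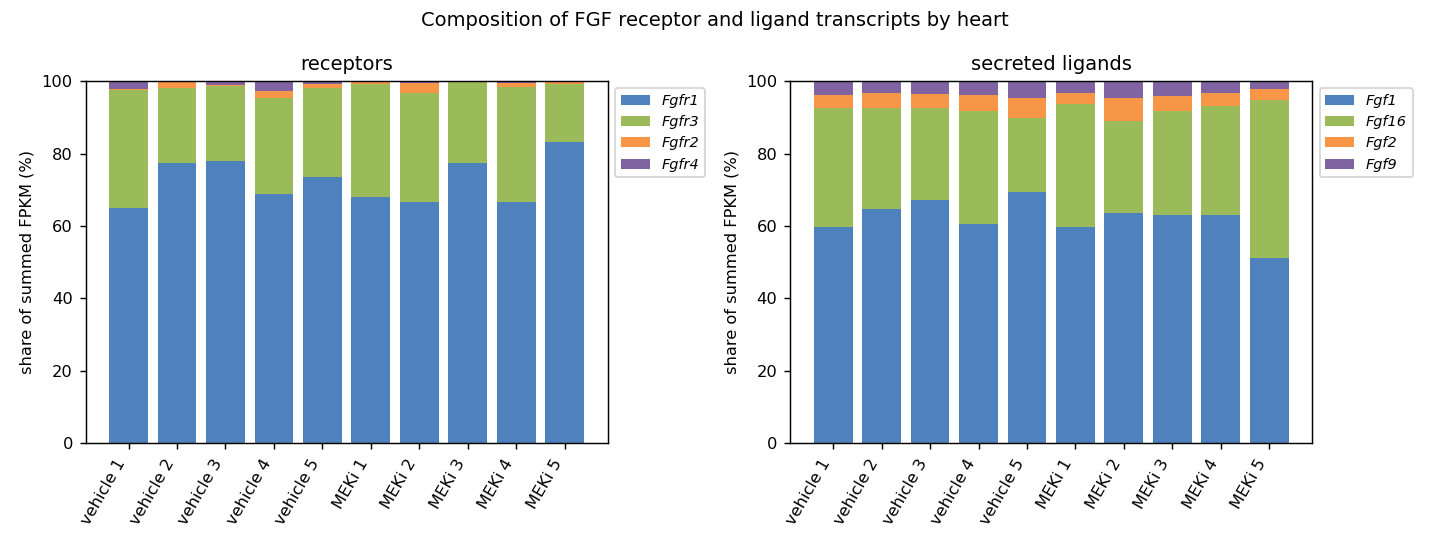
Share in percent of the summed FPKM of the 4 receptors (left) and of the 4 secreted ligands (right) that each gene contributed, with 1 bar per heart. *Fgfr1* holds between 65.0 and 83.3% of receptor FPKM and *Fgf1* between 51.0 and 69.3% of ligand FPKM, with vehicle and MEKi hearts intermixed.

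*Fgf1* and *Fgf16* carried most of the ligand transcripts. *Fgf1* (ENSMUSG00000036585, chromosome 18, 38838673 to 38929404, minus strand) encodes acidic FGF, a ligand for all 4 receptors that leaves cells without a signal peptide. It was at 26.9, 29.9, 29.7, 22.6 and 27.0 FPKM in vehicle hearts 1 to 5 and at 27.6, 24.8, 30.9, 29.6 and 25.6 FPKM in MEKi-treated hearts 1 to 5. The lowest and the highest heart differed only 1.37-fold. With 1462 to 2459 fragments per heart it was also the most deeply counted member, and its interval was the narrowest: the log2 fold change was 0.028 (SE 0.10, 95% interval −0.19 to 0.25, limma adjusted p = 0.963). On the FPKM scale this interval puts the ratio of MEKi to vehicle between 0.875 and 1.19. The log2 fold change itself was 0.11 on the TPM scale and −0.012 with quantile normalization.

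*Fgf16* (ENSMUSG00000031230, chromosome X, 105764279 to 105774939, plus strand) encodes a ligand of the FGF9 subfamily made by cardiomyocytes. It was at 14.7, 12.9, 11.2, 11.5 and 8.02 FPKM in vehicle hearts 1 to 5 and at 15.7, 9.95, 14.0, 14.2 and 22.0 FPKM in MEKi-treated hearts 1 to 5. Only MEKi hearts 1 and 5 were above all vehicle hearts, and MEKi heart 2 was below 4 of the 5. The means were 11.7 ± 2.47 and 15.2 ± 4.36 FPKM (SD, n = 5 each), the largest log2 fold change in size of the 7 members tested, at 0.36 (SE 0.20, 95% interval −0.085 to 0.80, limma adjusted p = 0.715; exact permutation test, p = 0.175). It was 0.21 without MEKi heart 5 and 0.50 without MEKi heart 2. The 383 X-linked genes tested had a median log2 fold change of 0.037 and the 12178 autosomal genes one of 0.010.

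*Fgf2* (ENSMUSG00000037225, chromosome 3, 37348346 to 37410108, plus strand), basic FGF, was at 1.58, 1.88, 1.70, 1.71 and 2.14 FPKM in vehicle hearts 1 to 5 and at 1.42, 2.41, 1.97, 1.62 and 1.53 FPKM in MEKi-treated hearts 1 to 5. The highest and the lowest of the 10 values were both from MEKi-treated hearts. The log2 fold change was −0.026 (SE 0.15, 95% interval −0.36 to 0.31, limma adjusted p = 0.978). *Fgf2* shares 640 exonic bases, 9.44% of its length, with *Nudt6* on the opposite strand. *Nudt6* was at 4.38 to 7.34 FPKM, and since no strand setting is given for the counting, the reads of the shared stretch cannot be assigned to either gene.

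*Fgf9* (ENSMUSG00000021974, chromosome 14, 58070547 to 58112720, plus strand), known as an epicardial and endocardial signal to the developing myocardium, was at 1.75, 1.52, 1.59, 1.42 and 1.79 FPKM in vehicle hearts 1 to 5. MEKi-treated hearts 1 to 5 had 1.56, 1.86, 2.05, 1.61 and 1.10 FPKM. The MEKi values reached both further up and further down than those of the vehicle hearts, and the means were nearly equal at 1.61 ± 0.155 and 1.63 ± 0.360 FPKM (SD, n = 5 each; log2 fold change −0.0064, SE 0.16, 95% interval −0.36 to 0.34, limma adjusted p = 0.994). Epicardial markers (*Wt1*, *Upk3b*, *Msln*, *Krt19* and *Upk1b*) summed to between 7.63 and 22.8 FPKM in vehicle hearts and between 0.765 and 16.4 FPKM in MEKi-treated hearts. Their part in the *Fgf9* values was not tested.

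Together the 4 secreted ligands summed to 42.3 ± 3.96 FPKM under vehicle and 46.3 ± 4.37 FPKM under MEKi (SD, n = 5 each). *Fgf1* made up 64.4 ± 4.10% and 60.1 ± 5.27% of this sum, and *Fgf16* made up 27.5 ± 4.80% and 32.4 ± 7.01%. *Fgf2* and *Fgf9* contributed between 2.18 and 6.17% each in any heart.

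The intracellular pair behaved unlike each other. *Fgf13* (ENSMUSG00000031137, chromosome X, 59062145 to 59568071, minus strand), the sodium-channel partner of this branch with the higher level in these hearts, was at 8.36, 11.1, 13.3, 9.92 and 8.12 FPKM in vehicle hearts 1 to 5 and at 13.02, 9.67, 11.9, 12.02 and 13.8 FPKM in MEKi-treated hearts 1 to 5. Vehicle heart 3 was above 4 of the 5 MEKi-treated hearts, so the groups overlapped. The means were 10.1 ± 2.12 and 12.1 ± 1.55 FPKM (SD, n = 5 each; log2 fold change 0.26, SE 0.15, 95% interval −0.055 to 0.58, limma adjusted p = 0.715; exact permutation test, p = 0.127).

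*Fgf12* (ENSMUSG00000022523, chromosome 16, 28160098 to 28753068, minus strand) had a mean under 0.5 FPKM and was high in particular hearts of both groups. It was at 0.0862, 0.123, 0.0794, 1.25 and 0.731 FPKM in vehicle hearts 1 to 5 and at 0.103, 1.17, 0.154, 0.126 and 0.0410 FPKM in MEKi-treated hearts 1 to 5. Vehicle hearts 4 and 5 and MEKi heart 2, with 108, 66 and 125 fragments, were thus far above the other 7 hearts, which had between 4 and 14. The lowest of the 3 was 4.76 times the highest of the 7. Between treatments the difference of mean log2(FPKM + 0.1) was −0.40 (exact permutation test, p = 0.754), and with these 3 hearts left out it was 0.045 (exact permutation p = 0.857). Leaving out the 3 highest values selects on *Fgf12* itself, so the second result cannot decide on an effect of treatment.

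The same 3 hearts were the highest for 5 of the 6 atrial markers. The sum of *Sln*, *Myl7*, *Myl4*, *Dkk3*, *Stard10* and *Bmp10* was 898, 423 and 740 FPKM in vehicle heart 4, vehicle heart 5 and MEKi heart 2, and between 13.7 and 58.95 FPKM in the others. *Myl7*, the atrial myosin light chain, was at 258 FPKM or more in these 3 and at 27.0 FPKM or less in the other 7. *Bmp10* was the exception, with no fragment in vehicle heart 5. Other marker lists also set these hearts apart. The skeletal muscle list summed to 162, 263 and 247 FPKM in vehicle heart 4, vehicle heart 5 and MEKi heart 2 and to at most 94.0 FPKM in the other 7, nearly all of it *Acta1*, skeletal actin, while *Myh4* had no fragment in any heart. Adipocyte markers were at 98.1 and 96.7 FPKM in vehicle heart 4 and MEKi heart 2, but at 0.950 FPKM in vehicle heart 5 and at most 30.8 FPKM elsewhere. None of the other 9 FGF members had its 3 highest values in these hearts, and of the 12602 genes tested 243 (1.93%) did. *Fgf13* ran from 8.12 to 9.92 FPKM in these 3 and from 8.36 to 13.8 FPKM in the others, and *Fgf16* from 8.02 to 11.5 and from 11.2 to 22.0 FPKM. As a result *Fgf12* made up between 8.26 and 11.2% of the summed *Fgf12* and *Fgf13* FPKM in the 3 hearts and between 0.297 and 1.28% in the other 7. The chambers that each sample held are not given, and the part of atrial or other tissue in these values was not tested.

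**Figure D4:**
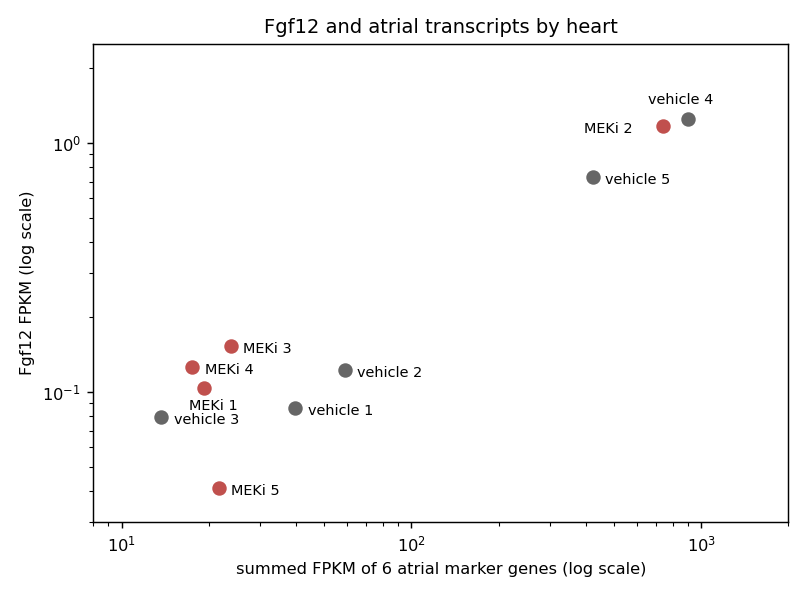
FPKM of *Fgf12* against the summed FPKM of 6 atrial marker genes, both on log scales, with 1 labelled point per heart (grey, vehicle control; red, MEKi-treated). Vehicle hearts 4 and 5 and MEKi heart 2 lie apart at upper right, at 0.731 to 1.25 FPKM of *Fgf12*, and the other 7 hearts lie at or under 0.154 FPKM.

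Both intracellular genes have several transcription starts, and a value per gene sums over them. RefSeq (GRCm38.p6) gives 4 start windows for *Fgf12* and 4 for *Fgf13*, so which first exon gave the *Fgf12* fragments of the 3 hearts cannot be read from these files. The 250 bases before the start are shown for the windows of these genes that overlap no annotated exon, to let the starts be compared. They are written 5′ to 3′ on the minus strand, and capitals mark the GC box GGGCGG on either strand.

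*Fgf12*, distal start, chr16:28753244-28753493: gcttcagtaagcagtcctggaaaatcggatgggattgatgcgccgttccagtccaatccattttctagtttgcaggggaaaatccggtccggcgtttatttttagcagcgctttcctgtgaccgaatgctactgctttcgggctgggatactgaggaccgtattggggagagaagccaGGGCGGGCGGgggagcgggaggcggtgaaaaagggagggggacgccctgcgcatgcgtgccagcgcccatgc

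*Fgf12*, inner start, chr16:28564952-28565201: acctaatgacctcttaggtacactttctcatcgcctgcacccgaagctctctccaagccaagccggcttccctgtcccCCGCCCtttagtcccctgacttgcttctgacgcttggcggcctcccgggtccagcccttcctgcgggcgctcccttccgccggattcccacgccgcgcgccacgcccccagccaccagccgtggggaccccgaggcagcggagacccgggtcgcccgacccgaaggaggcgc

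*Fgf13*, distal start, chrX:59585573-59585822: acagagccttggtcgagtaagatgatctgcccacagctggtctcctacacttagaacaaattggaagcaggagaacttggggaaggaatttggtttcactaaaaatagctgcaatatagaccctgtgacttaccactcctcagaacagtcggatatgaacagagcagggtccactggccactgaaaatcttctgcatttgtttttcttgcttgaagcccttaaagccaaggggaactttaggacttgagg

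*Fgf13*, inner start, chrX:59134437-59134686: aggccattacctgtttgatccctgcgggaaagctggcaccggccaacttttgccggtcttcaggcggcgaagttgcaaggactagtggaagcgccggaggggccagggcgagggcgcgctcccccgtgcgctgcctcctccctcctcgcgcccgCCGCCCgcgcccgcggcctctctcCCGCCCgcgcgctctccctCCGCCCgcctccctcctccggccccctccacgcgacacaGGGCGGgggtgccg

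Both distal starts lie beyond the extent of their gene in the deposited table. Fragments wholly within the outer stretch thus fell outside the gene as listed. Whether fragments that run from it into a listed exon were counted is not known, since the counting mode is not given. The first base is at 28753243 for *Fgf12*, which ends at 28753068 in the table, and at 59585572 for *Fgf13*, which ends at 59568071. The windows differ in base composition. The inner *Fgf13* window has 31 CpG dinucleotides and 4 GC boxes, whereas the distal one has 2 CpG dinucleotides and no GC box. The *Fgf12* windows have 18 and 24 CpG dinucleotides, with 2 overlapping GC boxes in the distal window and 1 in the inner one. Over 32851 RefSeq windows of the same length the median was 6 CpG dinucleotides, and 32.7% held a GC box. None of the 4 held the TATA box TATAAA, found in 12.4% of all windows, or the ETS core CCGGAAG, found in 6.91%, both searched on either strand. These are descriptions of letters and not of bound sites.

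The genes around the receptors were also read from lists. Of 16 other FGF ligands, 3 passed the filter: *Fgf7*, *Fgf11* and *Fgf18*. *Fgf18*, a ligand of the FGF8 subfamily, was at 3.90 ± 1.54 FPKM under vehicle and 3.45 ± 0.796 FPKM under MEKi, above *Fgf2* and *Fgf9* (log2 fold change −0.13 with SE 0.25, adjusted p by limma = 0.938). *Fgf11*, another intracellular family member, was at 1.54 ± 0.441 and 1.77 ± 0.547 FPKM (log2 fold change 0.17, limma adjusted p = 0.911). *Fgf7*, a fibroblast ligand for epithelial receptors, was at 0.637 ± 0.265 and 0.967 ± 0.369 FPKM (SD, n = 5 each; log2 fold change 0.56 with SE 0.32, adjusted p by limma = 0.715). The other 13, the hormones *Fgf15*, *Fgf21* and *Fgf23* among them, each had a mean of at most 0.272 FPKM.

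Of 18 coreceptors and carriers, 12 passed the filter and 0 had an adjusted p under 0.05. Their median log2 fold change was −0.0069, with 6 above and 6 below 0. The heparan sulfate proteoglycans *Gpc1* and *Hspg2* were the most abundant. *Gpc1*, glypican 1, was at 53.1 ± 10.5 and 58.9 ± 3.93 FPKM (log2 fold change 0.17, limma adjusted p = 0.808). *Hspg2*, perlecan, was at 27.0 ± 6.39 and 21.4 ± 1.36 FPKM (log2 fold change −0.31 with SE 0.15, adjusted p by limma = 0.660). *Cdh2*, N-cadherin of the intercalated disc, which also binds FGF receptors, had the smallest unadjusted p of this list, at 16.4 ± 3.52 and 20.7 ± 1.65 FPKM (SD, n = 5 each; log2 fold change 0.35 with SE 0.13, adjusted p by limma = 0.563). The klotho genes *Klb* and *Kl*, coreceptors of the hormone-like FGFs, were under the filter.

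All 13 adaptors and effectors passed the filter, with 0 called, 7 above and 6 below 0, and a median log2 fold change of 0.050. *Gab1*, a docking protein, was at 8.33 ± 0.993 FPKM under vehicle and 10.03 ± 0.416 FPKM under MEKi (log2 fold change 0.27 with SE 0.094, adjusted p by limma = 0.517). *Grb2*, the adaptor that brings SOS to the receptor complex, was at 23.1 ± 2.37 and 26.4 ± 1.01 FPKM (log2 fold change 0.20 with SE 0.089, adjusted p by limma = 0.649). *Ptpn11*, which encodes the phosphatase SHP2, was at 22.0 ± 4.08 and 20.7 ± 2.73 FPKM (SD, n = 5 each; log2 fold change −0.079, limma adjusted p = 0.931). At an unadjusted p under 0.05 there were 3 of the 13 (*Gab1*, *Grb2* and the docking protein gene *Frs2*, the last named after its value was seen), where 7.62% of all genes tested passed. The same count was 0 of 3 for the other FGF ligands, 1 of 12 for the coreceptors and carriers, 2 of 9 for the feedback and response genes and 1 of 7 for the partners of intracellular FGFs.

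Of 12 feedback and response genes that report FGF and ERK activity, 9 passed the filter, 7 with a log2 fold change below 0 and 2 above. None had an adjusted p under 0.05, and the median was −0.21, against 0.011 over all genes tested. *Spry4*, which encodes a feedback inhibitor of receptor tyrosine kinases, was at 2.66 ± 0.547 FPKM under vehicle and 1.45 ± 0.244 FPKM under MEKi (log2 fold change −0.82 with SE 0.17, adjusted p by limma = 0.195). *Spry2* was at 6.99 ± 0.610 and 5.98 ± 0.605 FPKM (log2 fold change −0.22 with SE 0.098, adjusted p by limma = 0.630). *Spry1*, the most abundant of the list, was at 7.16 ± 1.80 and 7.11 ± 1.04 FPKM (SD, n = 5 each; log2 fold change 0.015, limma adjusted p = 0.988). The 7 FGF members tested had a median of −0.0064, and the difference between the 2 medians was not tested.

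The partners of the intracellular FGFs completed the lists, with 7 of 14 past the filter and 0 called (2 log2 fold changes above and 5 below 0). *Jph2*, junctophilin 2, which joins the sarcoplasmic reticulum to the transverse tubules, was at 103 ± 20.9 and 115 ± 12.3 FPKM (log2 fold change 0.17, limma adjusted p = 0.820). *Cacna1c*, the L-type calcium channel, was at 4.92 ± 0.941 and 5.63 ± 0.465 FPKM (log2 fold change 0.21, limma adjusted p = 0.744). *Scn4b*, a sodium channel beta subunit, had the smallest unadjusted p of this list, at 5.55 ± 1.87 and 2.98 ± 1.37 FPKM (SD, n = 5 each; log2 fold change −0.93 with SE 0.29, adjusted p by limma = 0.476).

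**Figure D5:**
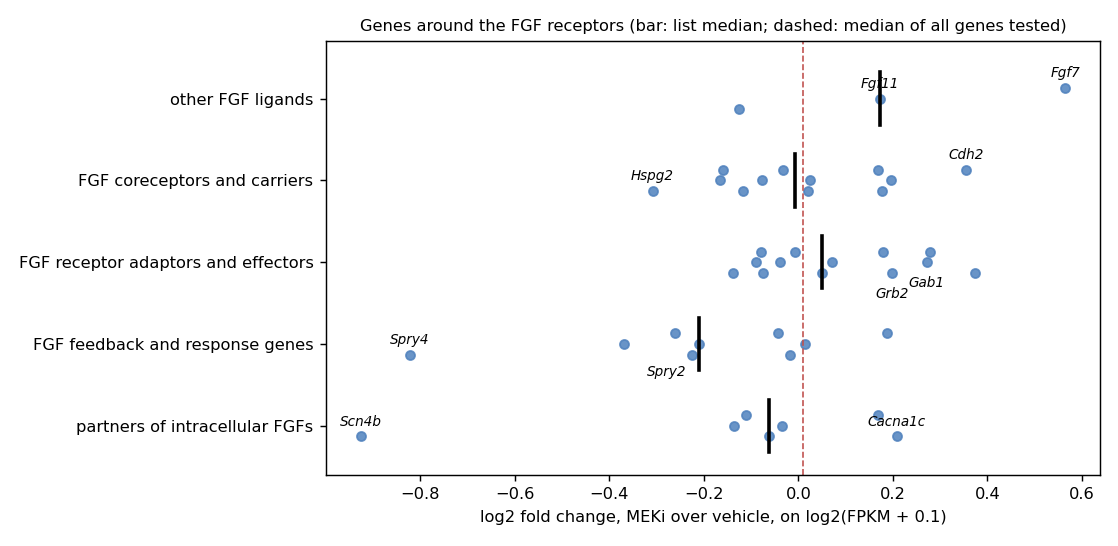
Log2 fold change, MEKi-treated over vehicle control, of each gene past the filter in 5 lists around the FGF receptors; points are genes, black bars are list medians, the dashed line is the median of all genes tested (0.011), and the 2 genes of smallest unadjusted p per list are named. The feedback list has the lowest median (−0.21), and no gene shown had an adjusted p under 0.05.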

How the data were processed

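Poly(A)-selected RNA of 10 hearts was sequenced. The authors deposited 1 table of FPKM, 1 column per heart, normalized by gene length and a library size for each heart. The submitters' processing notes name fastp, STAR 2.5 and HTSeq 0.6.1 and the build mm10; counting mode, strand setting and annotation release are not given in the sources used here. Gene positions matched GENCODE M21 for 98.3% of genes. Of the members only *Fgf1* did not match. Its deposited length, on which its FPKM rests, was 4648 bases, against 5463 in M21. In every heart, FPKM times gene length came in steps of 1 fragment (tolerance 0.02), which gave counts and depth. The library size behind the FPKM was not the total of these counts. It was 1.42e+07 against 15371692 fragments in vehicle heart 3, and 1.71e+07 against 16256252 in MEKi heart 1. How it was set is not given. Hearts are labelled biological replicates, and 95% intervals rest on the spread between them.

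Groups were taken from the labels. log2(FPKM + 0.1) was compared with limma 3.58.1 in R 4.3.3 (lmFit, eBayes with trend; two-sided), for the 12602 genes averaging 0.5 FPKM or more across the hearts. P-values were adjusted by Benjamini-Hochberg and called under 0.05. Fold changes on this scale understate changes of low genes. The fit was tested on simulated data. For members under the filter an exact permutation test (two-sided, unadjusted) took the place of limma. Summaries were made in Python 3.11.15. Alternatives were pseudocounts of 1 and 0.01, no filter and a mean of at least 5 FPKM, TPM, quantile normalization, voom on recovered fragments, robust eBayes, a replicate block, leaving out X, Y and mitochondrial genes, each heart, or the 3 hearts with high atrial transcripts. Named genes were all 10 members and, per list, the 2 most abundant and the 2 of smallest p past the filter. A named gene of the list of intracellular FGF partners is not reported here. The members and lists were chosen with earlier results of these data known.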

Additional observations from a re-analysis of the deposited data

Results flagged for a closer look

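Each of the 10 members was examined in each group of 5 hearts for a single heart far from the rest. Of 20 groups, 2 had one, where chance gives about 1. MEKi heart 2 was at 1.17 FPKM for *Fgf12*, while the other MEKi-treated hearts were between 0.0410 and 0.154 FPKM. The same heart was at 0.141 FPKM for *Fgfr2*, with the others between 0.0198 and 0.0487 FPKM. This heart also had the highest atrial marker sum of its group, 740 FPKM, and its part in both values was not tested. *Fgfr2* rested on 25 fragments in that heart.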

How the results depend on the processing

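Under every alternative, the count of members with an adjusted p under 0.05 (limma) was 0, as it was with the replicate block, with each heart left out and without the 3 hearts of high atrial transcripts. No pairing of the hearts by replicate number was seen: deviations of same-numbered hearts correlated between −0.15 and −0.021, and 0 of 10 hearts correlated best with its own number. This check cannot exclude that same-numbered hearts shared a litter or batch. The count over all genes was 10, and it was 4 with the replicate block, 2 with a mean of at least 5 FPKM, 5 without the atrial hearts or without vehicle heart 2, 0 of 12178 without X, Y and mitochondrial genes (924 at an unadjusted p under 0.05), and between 7 and 13 otherwise. *Fgfr1*, *Fgfr4*, *Fgf13* and *Fgf16* kept their direction under all alternatives in which they could be tested, but *Fgfr4* ran from −1.76 to −0.081 with the pseudocount. The log2 differences of the other 6 members changed sign under at least 1 alternative. The TPM scale gave 0.018 for *Fgfr2*, 0.049 for *Fgf2* and 0.068 for *Fgf9*, quantile normalization −0.012 for *Fgf1*, 0.0037 for *Fgf2* and 0.023 for *Fgf9*, a pseudocount of 0.01 gave 0.039 for *Fgfr2* and of 1 gave 0.0013 for *Fgf9*. Without the atrial hearts *Fgf1* was at −0.022 and *Fgf12* at 0.045. Every member in the limma fit had a higher log2 fold change on the TPM scale than in the main fit. That scale divides the values of a heart by their sum. It moves all genes well above the pseudocount by nearly the same amount, so the rise is not particular to the members. On that scale *Fgfr1* was at −0.068, *Fgf13* at 0.34 and *Fgf16* at 0.44. Leaving out single hearts gave −0.22 to −0.044 for *Fgfr1*, −0.74 to −0.42 for *Fgfr4*, 0.19 to 0.36 for *Fgf13*, 0.21 to 0.50 for *Fgf16*, −0.18 to 0.081 for *Fgfr2*, −0.18 to 0.12 for *Fgfr3*, −0.038 to 0.066 for *Fgf1*, −0.13 to 0.047 for *Fgf2*, −0.091 to 0.12 for *Fgf9* and −0.93 to 0.055 for *Fgf12*. Why the values moved under the other alternatives was not tested. Few fragments limit *Fgfr2* and *Fgfr4*.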

Other observations

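MEKi heart 5 held the extreme value of 5 members, a pattern noticed after the values were seen. It had the highest *Fgf16* (22.0 FPKM) and *Fgf13* (13.8 FPKM) of the 10 hearts, and the lowest *Fgfr3* (0.649 FPKM), *Fgf9* (1.10 FPKM) and *Fgf12* (0.0410 FPKM). *Fgf1*, at 25.6 FPKM, and *Fgfr1*, at 3.38 FPKM, were inside the range of the other hearts. Extremes were not particular to this heart. Vehicle heart 5 had the highest *Fgfr1* (5.10 FPKM) and *Fgfr3* (1.72 FPKM) and the lowest *Fgf13* (8.12 FPKM) and *Fgf16* (8.02 FPKM). Vehicle heart 4 had the highest *Fgf12* (1.25 FPKM) and *Fgfr4* (0.142 FPKM) and the lowest *Fgf1* (22.6 FPKM). MEKi heart 5 had the lowest cardiomyocyte marker sum, 9224 FPKM, although its *Ryr2*, at 27.3 FPKM, was second only to vehicle heart 3. Its endothelial marker sum (*Pecam1*, *Cdh5*, *Kdr*, *Tie1* and *Egfl7*) was 106 FPKM, where vehicle heart 3 had 105 and the other hearts between 121 and 172 FPKM. The part of these marker levels in the FGF values was not tested.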
